A study of Gallus gallus with 33 samples.

Results

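The transcription factor response of the chick utricle was examined 30 min after laser wounding, the earliest of the time points sampled. The 30 min arrays were chosen by their labels alone and numbered 5, from 2 biological samples, of 33 arrays from 9 biological samples in the whole series. The later time points held 2 samples on 6 arrays (1 hr), 2 samples on 8 arrays (2 hr) and 3 samples on 14 arrays (3 hr).

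Sensory epithelia were isolated from the utricles of post-hatch White Leghorn chickens with the protease thermolysin and grown as flat sheets on fibronectin. The lesioned cultures received linear wounds from a pulsed laser microbeam. The controls were unlesioned cultures of the same kind, kept outside the incubator while lesions were made and harvested at the same time. Each biological sample pooled several lesioned and several unlesioned specimens, so the spread between animals inside a pool is not visible. Polyadenylated RNA was amplified before labelling. Laser RNA and control RNA were labelled with opposite dyes (Cy3 or Cy5) and hybridized together, so every array gives 1 ratio of laser over control for each probe. Replicate 1 was hybridized to 2 arrays with the laser RNA in Cy3 and 1 array with it in Cy5. Replicate 2 was hybridized to 1 array in each orientation. No genotype or sex is given for any sample. As the samples were pools, p-values of the main test rest on the spread between these pools. That spread was estimated over all tested probes together, so it is not the spread of a single probe.

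The utricle is a balance organ of the inner ear. Its sensory epithelium holds hair cells, which sense head movement, and supporting cells, which surround them. Birds replace lost hair cells throughout life from supporting cells that divide or change fate. In many cell types a wound is followed within minutes by transcription of immediate early genes such as FOS, JUN and EGR1, whose promoters respond to factors already present, and later by the targets of those factors.

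The probes were oligonucleotides made to human sequences of transcription factor genes and printed as duplicate spots, so the chick RNA was hybridized across species. Analysis covered 1518 identifiers. Of these, 754 are a current gene symbol in the chicken annotation used for names, and 816 (53.8%) are a symbol or a synonym there. These shares count names and do not measure how many probes match a chick gene. The study reports, without showing the data, that nearly all its probes share most of their sequence with the chick ortholog. A name below is that of the probe on the array. Which chick transcript bound a given probe was not determined.

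Signals at 30 min were faint on part of the arrays. The median spot intensity in the laser channel lay between 589 and 1617 over the 5 arrays, and that in the control channel between 165 and 1016. In replicate 1, 38.2%, 5.96% and 49.9% of laser spots lay below their local background, against 40.4%, 6.15% and 57.0% of control spots. In replicate 2 the shares were 2.73% and 0.228% of laser spots, against 0.781% and 0.326% of control spots. A probe was tested if 1 or both of its signals exceeded 1000 on 50% or more of the 5 arrays. This left 510 of 1518 identifiers (33.6%). Duplicate spots of a tested probe correlated at 0.75 to 0.92 within an array, with a root mean square SD between them of 0.08 to 0.26 on the log2 scale.

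The ratios of the 2 biological samples were not positively related after normalization. Across the 510 tested probes, the mean log2 ratios of replicate 1 and replicate 2 had a Pearson r of -0.26, a description over probes that share arrays and are not independent. The value was -0.069 with no background correction and 0.22 with the deposited ratios, median centred but not otherwise normalized. Both dye orientations correlated at 0.28 within replicate 1 and at -0.08 within replicate 2. The 2 arrays of replicate 1 with the same orientation correlated at 0.44. The 6 pairs of arrays from different samples ranged from -0.26 to 0.06. The array of replicate 2 with the laser RNA in Cy5 had the widest spread of ratios (SD 0.77 over tested probes), against SDs of 0.28 to 0.45 on the other 4.

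**Figure D1:**
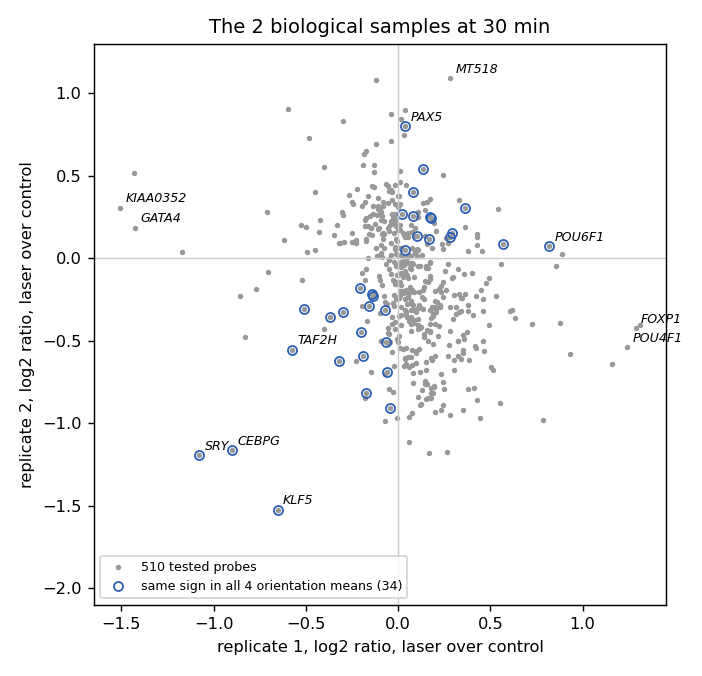
Mean log2 ratio of laser over control in replicate 2 (vertical axis) against replicate 1 (horizontal axis) for the 510 tested probes at 30 min. Open circles are the 34 probes with the same sign in both dye orientations of both samples; SRY, KLF5 and CEBPG lie apart at the lower left, and most other probes with a high or low value in one sample lie near 0 or on the other side in the other.

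Few probes had the same sign in both samples. Below 0 in both were 79 of 510 (15.5%), above 0 in both were 78 (15.3%), and 353 had opposite signs. A stricter rule asked for the same sign in both dye orientations of both samples. It was met by 19 probes below 0 (3.73% of those tested) and 15 above 0 (2.94%). The sizes were modest. The study proposes that hybridization across species may narrow the range of fold changes. It also reports that its arrays in general showed smaller changes than qPCR did. The mean over both samples exceeded 1.2-fold for 107 probes (21.0%), 28 higher and 79 lower after the laser lesion, and exceeded 2-fold for 3 probes.

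The 3 probes past 2-fold were SRY, KLF5 and CEBPG, and all were lower in laser-wounded than in control epithelia on all 5 arrays. SRY encodes the HMG-box factor that directs testis development in mammals, and birds have no SRY gene. KLF5 encodes a zinc finger factor of dividing epithelial cells. CEBPG encodes a leucine zipper factor that pairs with other C/EBP proteins and with ATF4 in stress responses.

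The SRY probe had log2 ratios of -2.05, -0.84 and -0.71 on the arrays of replicate 1 (laser RNA in Cy3 on the first pair, in Cy5 on the last) and of -1.07 (laser in Cy3) and -1.31 (laser in Cy5) in replicate 2. Its mean was -1.14 ± 0.08 (SD, n = 2), a signal 2.20-fold lower after the lesion. Both samples lay close together, at -1.08 and -1.19. The symbol SRY has no entry in the chicken gene table, so the transcript behind this signal is not named here.

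The KLF5 probe had log2 ratios of -0.75, -0.62 and -0.62 in replicate 1 and of -1.04 and -2.01 in replicate 2, in the same order of arrays. Its mean was -1.09 ± 0.62 (SD, n = 2), or 2.13-fold lower. The second sample was lower than the first (-1.52 and -0.65), and the Cy5 array of replicate 2 lay furthest from 0.

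The CEBPG probe had log2 ratios of -0.55, -0.62 and -1.22 in replicate 1 and of -0.07 and -2.26 in replicate 2. Its mean was -1.03 ± 0.19 (SD, n = 2), or 2.04-fold lower. The samples agreed in size (-0.90 and -1.16), while the orientations within a sample did not. In both samples the array with the laser RNA in Cy5 gave the lower value.

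The tested mean of each probe was set against 0 with limma. Its variance prior had no finite limit on its degrees of freedom, so 1 standard error, 0.299 on the log2 scale, served all probes. No probe passed a Benjamini-Hochberg adjusted p of 0.05 (0% of 510). In limma the adjusted p was 0.0761 for SRY, 0.0761 for KLF5 and 0.102 for CEBPG, and 7 probes had an unadjusted p under 0.05. The per-probe test named in the study's methods was also run over the 5 arrays, which counts repeat arrays of a sample as replicates. It gave 0 probes after adjustment, and 10 before it. These p-values depended on the processing. With no background correction all of SRY, KLF5 and CEBPG passed in limma (adjusted p of 2.1e-06, 4.13e-06 and 2.14e-06). Over all 9 samples with a shared spread none passed (smallest adjusted p 0.994), and in that fit the SRY mean had a standard error of 0.645. That spread rested largely on 3 hr replicate 1, since without it the smallest adjusted p, that of SRY, was 0.0504 and 23 probes had an unadjusted p under 0.05, against 3 with it.

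**Figure D2:**
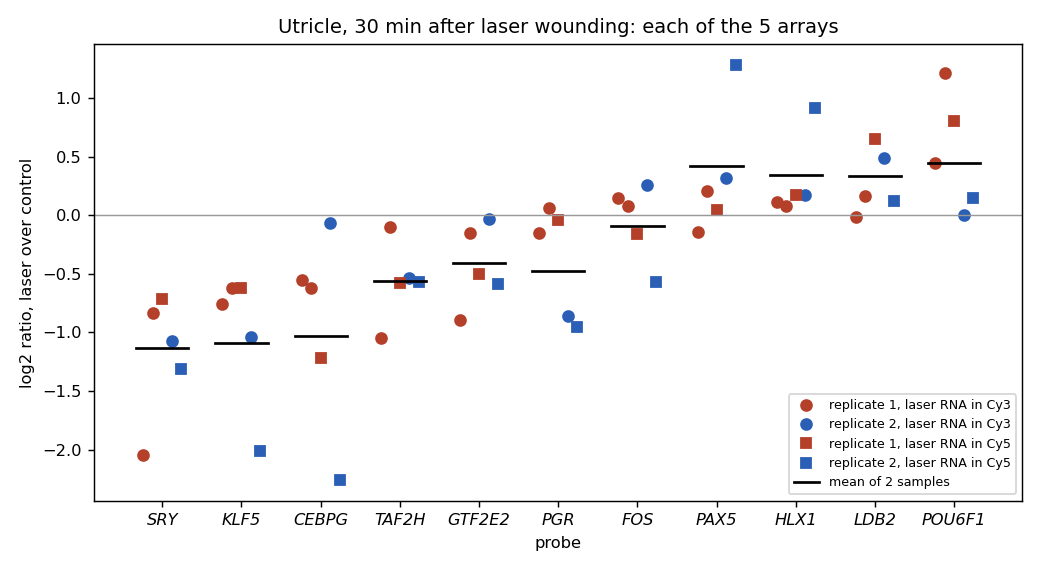
Log2 ratio of laser over control for 11 probes on each of the 5 arrays at 30 min; colour marks the biological sample, shape the dye of the laser RNA, and bars the mean over samples. SRY, KLF5 and CEBPG are below 0 on all 5 arrays, FOS lies on both sides of 0, and the high PAX5 and HLX1 means rest largely on 1 array of replicate 2.

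The direction of these 3 ratios rests on the normalization within arrays, as the uncorrected signals show. For SRY the laser signals were 400.3, 4763 and 927 in replicate 1 and 2786 and 2523 in replicate 2, against control signals of 332, 5002 and 1354 in replicate 1 and 2603 and 12199.7 in replicate 2. On 2 of 3 arrays with the laser RNA in Cy3 the laser signal was thus the higher one. On all 3 of these arrays the median probe was also brighter in the laser channel, by 2.06 and 0.77 in replicate 1 and 0.88 in replicate 2 on the log2 scale. Less the median of its array, the uncorrected SRY ratio was -1.79, -0.84 and -0.65 in replicate 1 and -0.78 and -2.34 in replicate 2. For KLF5 the same centred ratios were -0.61, -0.67 and -0.48 in replicate 1 and -0.86 and -2.91 in replicate 2. For CEBPG they were -1.12, -0.75 and -1.37 in replicate 1 and -0.09 and -3.28 in replicate 2. All 15 centred values of the 3 probes were below 0.

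KLF5 laser signals were 841, 14910.5 and 994 in replicate 1 and 4568 and 1890.3 in replicate 2, against control signals of 308, 13925 and 1294 in replicate 1 and 4509 and 13615 in replicate 2. For CEBPG the laser signals were 2485, 30814 and 4162 in replicate 1 and 9195 and 2712 in replicate 2, against control signals of 1293, 30448 and 10029.8 in replicate 1 and 5321 and 25132 in replicate 2. CEBPG was among 10 identifiers whose signal exceeded 1000 in both channels on all 5 arrays.

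**Figure D3:**
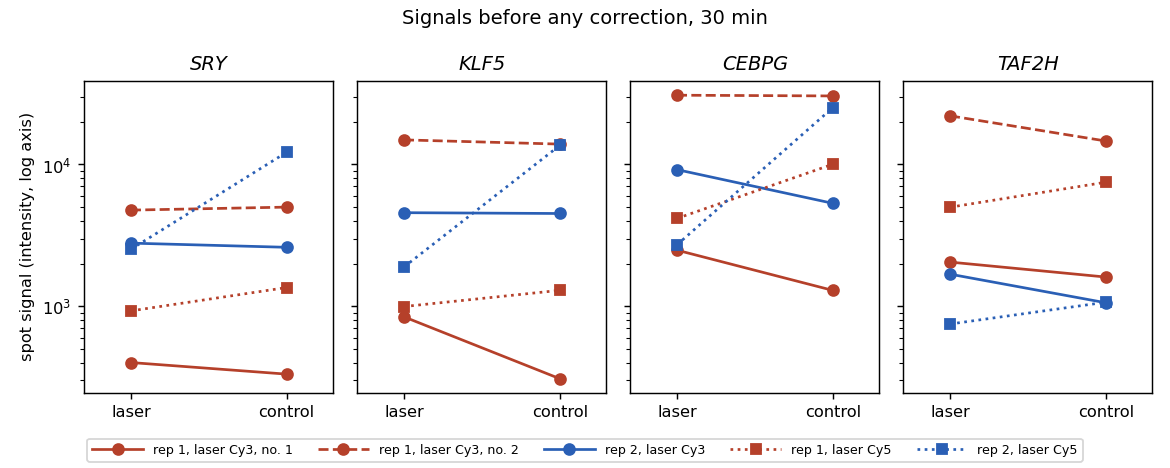
Uncorrected spot signals (log axis) of the SRY, KLF5, CEBPG and TAF2H probes in the laser channel (left) and the control channel (right) of each array. With the laser RNA in Cy5 (squares) the control signal was the higher one in all 4 panels; with the laser RNA in Cy3 (circles) the laser signal was the higher one except for SRY on the second array of replicate 1.

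Thresholds like those of the study's methods were met by 6 probes (1.18% of those tested), all lower after the lesion. They ask for an unadjusted limma p under 0.05, a change over 1.2-fold and the same sign on 80% or more of the arrays. With no background correction the count was 19, of which 16 were lower and 3 higher. The direction turned with the sample kept. Without replicate 1 the count was 59, of which 47 were lower and 12 higher, and without replicate 2 it was 13, of which 3 were lower and 10 higher. These shared 0 and 1 probes with the 6, in fits where the lone sample was assumed to vary like the other times. Beside SRY, KLF5 and CEBPG they included GATA4 and KIAA0352. GATA4 encodes a zinc finger factor of heart and gut.

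GATA4 and KIAA0352 were low in replicate 1 and above 0 in replicate 2. GATA4 was -1.42 in replicate 1 and 0.19 in replicate 2 (mean -0.62 ± 1.14, SD, n = 2). KIAA0352 was -1.51 in replicate 1 and 0.31 in replicate 2 (mean -0.60 ± 1.28, SD, n = 2), and its array values ran from -3.22 to 1.14. The 1 remaining probe with an unadjusted limma p under 0.05, MT518, is named here after its values were seen. It averaged 0.69 ± 0.57 (SD, n = 2), higher after the lesion, with a limma adjusted p of 0.997. It was above 0 on 3 of 5 arrays and reached 2.28 on the Cy5 array of replicate 2.

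Among the probes lower in both orientations of both samples, 12 were named by size of mean, and SRY, KLF5 and CEBPG led them. TAF2H, named for a subunit of the TFIID complex that places RNA polymerase II at promoters, was nearly identical in both samples (-0.57 and -0.55) and averaged -0.56 ± 0.013 (SD, n = 2). Its arrays gave -1.04, -0.10 and -0.57 in replicate 1 and -0.54 and -0.57 in replicate 2. Laser signals of TAF2H were 2047, 22043 and 4992 in replicate 1 and 1682 and 748 in replicate 2, against control signals of 1606, 14642 and 7495 in replicate 1 and 1057 and 1066 in replicate 2. All 5 arrays were below 0, and the limma adjusted p was 0.997.

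GTF2E2, the beta subunit of the initiation factor TFIIE, was below 0 on all 5 arrays and averaged -0.41 ± 0.14 (SD, n = 2). Its sample values were -0.51 and -0.31. MYT2 averaged -0.49 ± 0.45, the progesterone receptor PGR -0.48 ± 0.61 and the KRAB zinc finger repressor ZNF10 -0.47 ± 0.21 (SD, n = 2 each). For PGR nearly all of the difference lay in replicate 2, at -0.91, against -0.04 in replicate 1. LAF4, of the AF4 family of nuclear proteins, averaged -0.39 ± 0.28, SSX5 -0.32 ± 0.17, the PR-domain zinc finger factor PRDM16 -0.31 ± 0.02 and the GATA cofactor FOG2 -0.22 ± 0.09 (SD, n = 2 each). Each of the 7 probes from MYT2 to FOG2 was below 0 on 4 of 5 arrays.

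The 12 probes named above 0 in both orientations of both samples had smaller means, from 0.15 to 0.45. The POU homeodomain gene POU6F1 led them at 0.45 ± 0.53 (SD, n = 2). Its arrays gave 0.45, 1.21 and 0.81 in replicate 1, and 0.00 and 0.14 in replicate 2, so the height lay in replicate 1. PAX5, a factor of B cell identity, averaged 0.42 ± 0.54 and the homeobox gene HLX1 0.34 ± 0.29 (SD, n = 2 each). Both were highest on the Cy5 array of replicate 2, at 1.28 for PAX5 and 0.92 for HLX1, and their other values ran from -0.14 to 0.32. LDB2, an adaptor of LIM homeodomain factors, was alike in both samples (0.36 and 0.31) and averaged 0.33 ± 0.04 (SD, n = 2). KIAA0731 averaged 0.33 ± 0.34 and KIAA0326 0.22 ± 0.10. The ATP-gated channel gene P2RX5 averaged 0.24 ± 0.23, the proteasome ATPase gene PSMC1 0.21 ± 0.06 and the TFIID subunit gene TAF2B 0.21 ± 0.04. The bromodomain gene BAZ1B averaged 0.21 ± 0.11, the neural crest factor gene PAX3 0.17 ± 0.13 and KIAA1037 0.15 ± 0.18 (SD, n = 2 each). HLX1, KIAA0731 and KIAA0326 were above local background in both channels on 3 of 5 arrays. On the Cy5 array of replicate 1, PAX5, KIAA0731, KIAA0326, TAF2B and PAX3 lay below local background in both channels. Less the array median, the uncorrected ratios there were -0.59 for TAF2B, -0.27 for PAX3 and -0.26 for KIAA0731. Those of PAX5 and KIAA0326 were 0.37 and 0.25. After correction and normalization all 5 were above 0 on that array. The limma adjusted p was 0.997 for each of the 12.

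Immediate early genes, the first transcripts to appear after many stimuli, were covered by 26 identifiers, of which 11 were tested. Of these 11, 1 was above 0 in both samples (15.3% over all tested probes) and 3 were below 0 in both (15.5%). None of the 11 passed the thresholds. Their median log2 ratio was -0.12, beside -0.03 over all 510 tested probes. The range was -0.37 to 0.05. EGR1, a zinc finger gene induced within minutes in many cells, was lowest at -0.37 ± 0.44 (SD, n = 2). Its values were -0.05, -0.05 and -0.06 in replicate 1 and -0.05 in the Cy3 array of replicate 2, and -1.33 on the remaining array. That is a value near 0 on 4 arrays and a low value on 1. EGR1 was above local background in both channels on 3 of 5 arrays, and it was one of the 19 probes below 0 in both orientations of both samples.

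JUNB, an AP1 subunit, had array values from -1.65 to 0.64 and sample values of 0.19 and -0.82. COPEB, a Kruppel-like zinc finger gene, had sample values of -0.49 and 0.04. FOS, also an AP1 subunit, was not among the tested probes, since its signal passed 1000 on 2 of 5 arrays. It is named here as the textbook member of the list. FOS had 0.15, 0.08 and -0.16 in replicate 1 and 0.26 and -0.57 in replicate 2, for sample values of -0.03 and -0.16. FOS was thus above 0 in all 3 arrays with the laser RNA in Cy3 and below 0 in both with it in Cy5. JUN was tested and had sample values of -0.15 and 0.26. Over all 26 immediate early identifiers, tested or not, 9 means were above 0 and 17 below, with a median of -0.06, beside 779 above and 739 below with a median of 0.01 over all 1518.

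Factors that act on immediate early promoters (SRF, ELK, CREB and ATF families) had 4 of 17 members tested. Of these, 1 was above 0 in both samples and none below (15.3% and 15.5% over all tested probes), with a median of 0.12. ATF7, a relative of the stress-responsive factor ATF2, had the largest value at 0.42 ± 0.65 (SD, n = 2), at -0.04 in replicate 1 and 0.88 in replicate 2.

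Stress, hypoxia and p53 factors had 9 of 18 members tested. CEBPG passed the thresholds (1.18% over all tested probes). In both samples 2 members were below 0 and 1 above (15.5% and 15.3% over all tested probes), and the median was -0.11. CEBPB, a leucine zipper partner of CEBPG, was the second of the 2, at -0.40 and -0.43 (mean -0.41 ± 0.02, SD, n = 2; limma adjusted p 0.997). Its arrays ran from -1.52 to 0.14. BACH2 was -1.17 in replicate 1 and 0.04 in replicate 2. The NFKB, STAT and IRF factors, which carry inflammatory and cytokine signals, had 5 of 26 members tested. All 5 had opposite signs in the samples, as had 353 of all 510 tested probes. The median of the 5 was -0.06.

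Among developmental signalling groups, TGF-beta and BMP factors had 12 of 17 members tested, with a median of -0.04. In both samples 1 was above and 3 were below 0 (15.3% and 15.5% over all tested probes). The homeobox gene DLX3 had sample values of -0.18 and -0.85, MADH1, which carries BMP signals, -0.05 and -0.79, and the epithelial ETS gene ELF3 0.25 and 0.50. Notch factors had 3 of 9 tested, with a median of -0.02. All 3 were of opposite sign in the samples, as were 353 of all 510 tested probes. WNT factors had 3 of 8 tested, with a median of -0.07, and 1 of them was above 0 in both samples. That was CTNNB1, the gene of beta-catenin, at 0.09 and 0.18. A list of the PAX, EYA and DACH families and other factors known from the patterning of sensory placodes also held the homeobox genes PROX1, MSX2, HHEX and BAPX1. It had 8 of 23 tested, with 3 above and 1 below 0 in both samples and a median of 0.04. The 1 member below 0 was BAPX1, a homeobox gene of skeletal development, at -0.07 and -0.99, with -2.56 on the Cy3 array of replicate 2.

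Cell cycle factors had 13 of 32 members tested. None was above and 2 were below 0 in both samples (15.3% and 15.5% over all tested probes), and the median was 0.03. Polycomb and SWI/SNF chromatin factors had 7 of 20 tested, with 1 above and 1 below in both, and a median of -0.02. General transcription factors had 18 of 36 tested, with 2 above and 4 below in both, a median of -0.01, and TAF2H lowest.

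By family, zinc finger genes had 29 of 161 tested, with a median of -0.10. In both samples 3 were above and 3 below 0 (15.3% and 15.5% over all tested probes). ZNF31 reached 0.39 ± 0.51 (SD, n = 2). The HOX cluster had 23 of 38 tested, with 1 above and 2 below and a median of -0.02. Nuclear receptors had 14 of 45 tested, with 3 above and 3 below and a median of 0.05. Forkhead genes had 10 of 21 tested, with 2 above and 2 below and a median of 0.01. SOX genes had 5 of 11 tested, with 1 above and 2 below, among them SRY, and a median of -0.19. Kruppel-like and SP factors had 3 of 16 tested, with 1 below, which was KLF5, and a median of -0.23. POU genes had 3 of 10 tested, with 1 above and a median of 0.35. T-box genes had 4 of 16 tested, with a median of -0.15. All 4 were of opposite sign, as were 353 of all 510 tested probes.

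**Figure D4:**
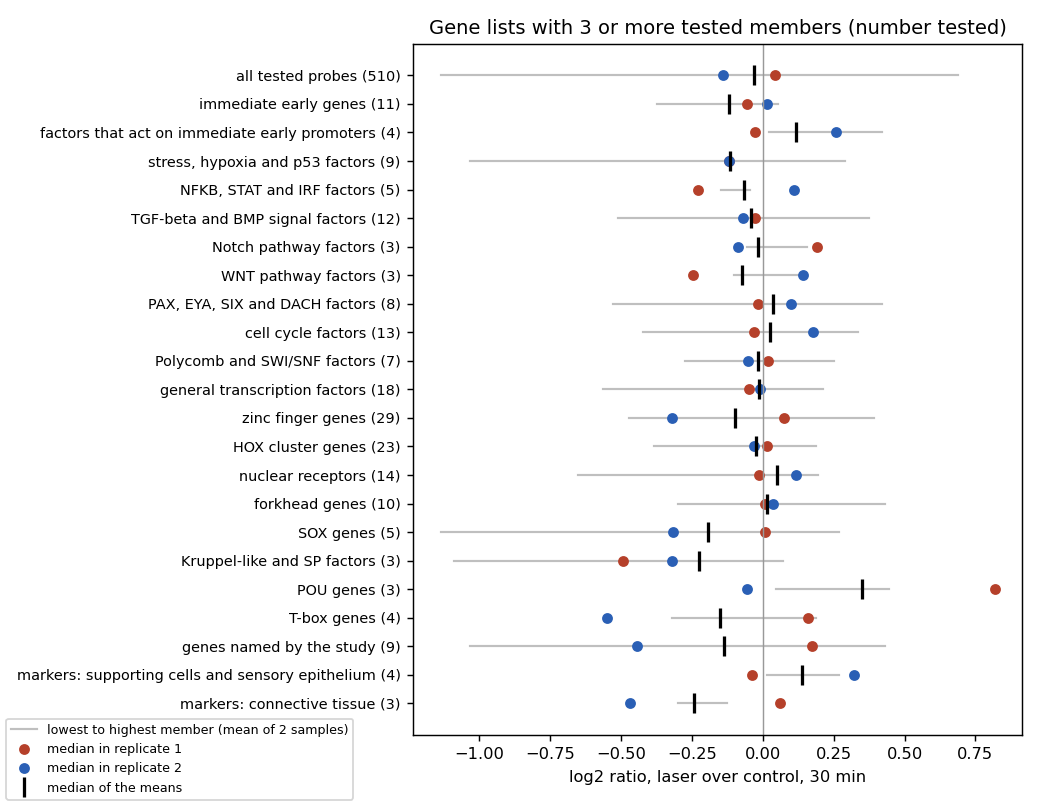
Median log2 ratio of laser over control at 30 min in each biological sample (points), median of the means (bars) and range of the means (lines) for the gene lists with 3 or more tested members. The medians of both samples lie on opposite sides of 0 for most lists and for all 510 tested probes (0.04 in replicate 1 and -0.14 in replicate 2).

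Markers of the tissue and of cell types that could accompany it were read with the same filter. The supporting cell and sensory epithelium list had 4 of 9 members tested, including SOX2, GATA3 and HEY1. Summed over all 9 members, tested or not, the uncorrected laser signal ran from 5002 to 16305 over the 5 arrays. The control sum ran from 1664 to 11511. These sums include local background, so they do not show that a marker was present. SOX2 had sample values of 0.01 and 0.53, GATA3 of -0.48 and 0.73, and HEY1 of 0.40 and -0.09. The median of the tested members was 0.14, and 1 was above 0 in both samples (15.3% over all tested probes).

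Of 4 hair cell markers 1, GFI1, was tested, with sample values of 0.07 and -0.07. The other 3 hair cell markers lay below the filter. By another reading, signals had to exceed local background plus 2 SD in both channels on 50% or more of the arrays. This was met by 1 of 4 hair cell markers and 3 of 9 supporting cell markers, beside 487 of all 1518 identifiers. These counts do not show that a marker was present. Neuronal markers had 2 of 6 tested, with a median of 0.21. POU4F1, a sensory neuron factor, had sample values of 1.24 and -0.54. Connective tissue markers had 3 of 7 tested, with a median of -0.24, among them FOXC1 at 0.06 and -0.66. Blood cell markers had 2 of 9 tested, PAX5 among them, with a median of 0.25. Both were above 0 in both samples, as were 15.3% of all tested probes. Of the 4 skeletal muscle markers 0 were tested. The summed uncorrected signals of all 7 connective tissue members ran from 5561 to 15363 in the laser channel and from 1321 to 11187 in the control channel. They too include local background, and signals of different probes do not give the proportion of cells. The study's methods describe N-cadherin staining at nearly all cell junctions of such cultures, with few cells from outside the sensory epithelium. The part of other cells in any result was not tested.

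A list held 12 of the genes that the study named for the injured utricle. Some were named for a response shared by laser and neomycin injury and not for the first 30 min. At 30 min itself the study called ZNF93 and ZID lower and FLJ12517 higher. From its clusters it described NR1I3, SIX3 and LOC51637 as apparently peaking at 30 min or 1 hr. It described FOXP1 as apparently rising early after the laser lesion. The list left out others, among them HLX1, ELF3 and TCF8, which the study called higher at 30 min. Here their means were 0.34, 0.37 and 0.05. The sample values were 0.14 and 0.54 for HLX1, 0.25 and 0.50 for ELF3, and -0.25 and 0.34 for TCF8. TCF8 thus had opposite signs in the samples. The study chose such genes in part on these samples, so their direction here is not independent evidence. Of the 12, 9 were tested, 2 were above 0 in both samples, 1 was below 0 in both and 1 passed the thresholds (CEBPG, lower). Over all tested probes those shares were 15.3%, 15.5% and 1.18%. The median of the 9 was -0.14. PSMC5, a proteasome ATPase gene, was 0.19 and 0.22 (mean 0.20 ± 0.017, SD, n = 2), and NR1I3, a nuclear receptor gene, 0.05 and 0.13. FOXP1, a forkhead gene, was 1.29 in replicate 1 and -0.42 in replicate 2. Its arrays gave 0.45, 0.26 and 2.22 in replicate 1 and 0.23 and -1.07 in replicate 2, so it was above 0 on 4 of 5. On the array at 2.22 the FOXP1 control signal (2033) lay below its local background (2376). The FOXP1 spots were not dim for that array, whose median spot signals were 589 (laser) and 534 (control). Less the array median, the uncorrected FOXP1 ratio there was 0.02. After correction and normalization its duplicate spots there gave 2.04 and 2.40. The part of the background correction in the height of replicate 1 was not tested. The heat shock factor gene HSF1 was 0.05 and -0.28, ZNF93 0.23 and -0.70, ZID 0.17 and -0.44, LOC51131 0.25 and -0.79, and SSX4 0.13 and -0.80. These 5 were above 0 in replicate 1 and below 0 in replicate 2. Of the 3 below the filter, SIX3 was 0.12 and 0.11, FLJ12517 -0.11 and 0.31, and LOC51637 0.01 and 0.27.

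Set against the later time points, 30 min was examined with a contrast of its mean minus the average of the 1 hr, 2 hr and 3 hr means over all 9 samples. No probe differed at an adjusted p of 0.05 (0% of 510; limma, smallest adjusted p 0.997), and 1 had an unadjusted p under 0.05. That was the ETS gene ETV1, at -0.01 at 30 min and 0.36 on average later (difference -0.37, SE 0.154, p = 0.0459). BAPX1 followed with a difference of -0.77 (SE 0.330) and GTF2E2 with -0.40 (SE 0.170). ETV1 was above 0 in 5 of the 7 later samples. Without 3 hr replicate 1 the contrast again called 0 probes at an adjusted p of 0.05. The smallest limma adjusted p was then 0.114, and 11 probes had an unadjusted p under 0.05.

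SRY, at -1.08 and -1.19 at 30 min, lay between -0.44 and 0.22 in 6 later samples and at -3.02 in 3 hr replicate 1. KLF5, at -0.65 and -1.52 at 30 min, lay between -0.29 and 0.50 in the same 6 and at -1.74 in 3 hr replicate 1. CEBPG was -0.90 and -1.16 at 30 min and lay below 0 in 6 of 7 later samples (-1.07 to -0.14), with 1.56 in 1 hr replicate 1. The sample 3 hr replicate 1 had by far the widest ratios (SD 0.89 over the tested probes, against 0.15 to 0.28 in the other later samples). The contrast of SRY was -0.78 (SE 0.734; p = 0.322), that of KLF5 -1.06 (SE 0.516; p = 0.0776) and that of CEBPG -0.79 (SE 0.588; p = 0.22), all unadjusted limma values. In 4 later samples (1 hr and 2 hr replicate 2, 3 hr replicates 2 and 3) the dye orientations opposed each other, with r between -0.79 and -0.32. Without these 4, each later time kept 1 sample, 3 hr replicate 1 among them. Such a fit cannot tell a time from a sample, so no calls are drawn from it.

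**Figure D5:**
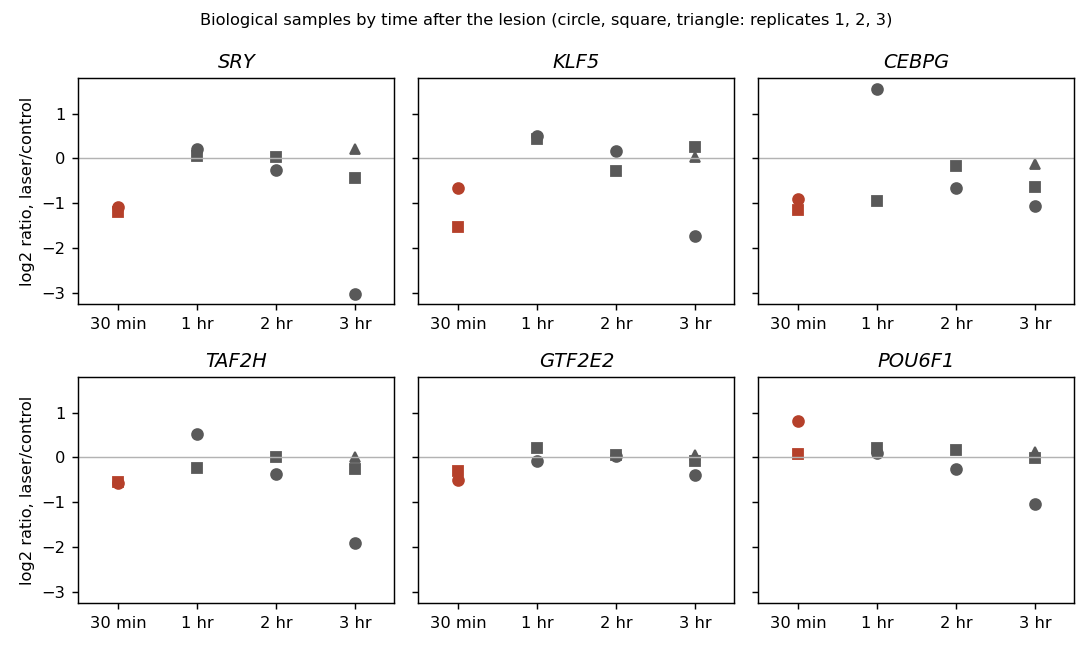
Mean log2 ratio of laser over control in each biological sample at 30 min, 1 hr, 2 hr and 3 hr for 6 probes. The 30 min samples of SRY and KLF5 lie below every later sample except 3 hr replicate 1, while CEBPG is also low in most later samples.

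An identifier counted as detectable at a time point if both of its signals exceeded 1000 on 80% or more of the arrays. At 30 min 62 of 1518 identifiers (4.08%) met this rule, against 5 for the 1 hr arrays, 4 for the 2 hr arrays and 9 for the 3 hr arrays. The count rested on single samples, with 136 without replicate 1 and 12 without replicate 2. The level is a fixed brightness and the arrays differed in brightness, so this is no difference in expression between times. Of the 62, 52 met it at no later time. The mean log2 ratios of the 62 ran from -1.03 (CEBPG) to 0.45, with a median of -0.05. In both samples 15 were below and 10 above 0 (15.5% and 15.3% over all tested probes).

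The days in the names of the scanned images divided the 5 arrays into 3 sets. The first Cy3 array and the Cy5 array of replicate 1 shared a day, its second Cy3 array had a day of its own, and both arrays of replicate 2 shared a day. Sample and scan day therefore cannot be told apart between the replicates, while laser and control RNA were on the same array throughout. Without the array scanned on a day of its own, SRY passed an adjusted p of 0.05 in limma (adjusted p = 0.0131, mean -1.29), and 4 probes met the thresholds.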

How the data were processed

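The deposited channel files, 1 per dye, hold the linear intensity of each spot and of its surroundings, read by ImaGene 4.1 per the file headers, with neither subtraction nor normalization. The authors normalized such values by lowess, left out dim genes and poor hybridizations and applied a test per gene. Those values are not part of what was analysed. A series table that the authors deposited gives log2 ratios, laser over control. Its columns equalled the uncorrected ratios of the channel files (largest difference 6.22e-15) and were neither normalized nor centred (medians 0.07 to 2.06 at 30 min). These ratios were median centred before they served as an alternative.

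The title suffix and the image name in the header named the same laser dye on every array, and 2 files of later arrays that held the image of the other dye were read by the header. Of 3072 spots on an array, those of 16 identifiers ending in mm and a digit had weight 0 in the loess fit and were left out. The 1518 identifiers kept had 2 spots each, except 2 with 4. Intensities were corrected with normexp (offset 50), normalized within arrays by loess, turned to laser over control, and averaged over duplicate spots, arrays of 1 dye orientation, then both orientations. The means of the 2 samples were tested with limma 3.58.1 (R 4.3.3, statmod 1.5.0) and Benjamini-Hochberg adjustment. The study tested each time point alone, so the 30 min samples were fitted alone. The contrast with later times used all 9 samples. Scripts were tested on simulated arrays. Their changes exceeded every tested mean at 30 min and were the same in both samples, so this checked the code only.

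Probes were named by rule. The rule took the 12 highest and 12 lowest means among tested probes with 1 sign in both orientations of both samples. These were above local background in both channels on all 5 arrays (on 3 where fewer than 12 qualified, as for those above 0). The rule also took every probe past a threshold, up to 3 members per list by size, the listed genes that the study named, and the 3 smallest p-values of the contrast. Of those the rule picked, a selection per list is given, and some items are not reported here. The members, lists and tests were chosen with earlier results of these data known. The labels call the samples biological replicates, and pools of specimens were their source. The number of arrays limits the precision. Gene names come from the array and from the chicken table of GRCg7b (RefSeq), with no coordinates and no sequences used. Alternatives covered background correction, normalization, filters, fits and left-out samples.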

Additional observations from a re-analysis of the deposited data

How the results depend on the processing

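Over up to 22 alternatives, 26 of the 55 named probes followed changed sign in 1 or more. SRY, KLF5, CEBPG, TAF2H and GTF2E2 were among those that did not. They were named for 1 sign in both orientations of both samples, so leaving out a sample could not turn them. The count of probes past an adjusted p of 0.05 was 0 and became 3 (SRY, KLF5 and CEBPG) with no background correction, with no filter on dim probes and with a filter of local background plus 2 SD, 18 with the deposited ratios, 2 with array quality weights, and 1 without the array scanned on a day of its own; in the other 16 it stayed 0. The count past the thresholds, 6, was 19 (16 lower, 3 higher) with no background correction, 3 with median centring, 37 with the deposited ratios, 3 with a plain mean over arrays, 12 with no filter, 3 at a filter level of 1200, 2 with the shared spread of all 9 samples, 17 in that fit without 3 hr replicate 1, 1 in that fit with the replicate block, 30 with array quality weights and 3 with the scan day as a random block (this and the array left out by scan day were chosen after seeing the data). Leaving out 1 sample at 30 min, with the lone sample assumed to vary like the other times, gave 13 to 59 (59 without replicate 1, 13 without replicate 2) and 0 past an adjusted p of 0.05. The correlation of the samples, -0.26, was -0.069 with no background correction and 0.22 with the deposited ratios. The contrast with later times called 0 probes. Without the 4 later samples of opposed dye orientations each later time kept 1 sample, so no calls are drawn from that fit. Detectable identifiers, 62, became 124 at level 800, 40 at 1200, 182 at local background plus 2 SD and 176 in either channel, and 12 to 136 when 1 sample was left out. The cause of these changes was not tested.

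Replicate numbers recur across time points. In deviations from the time means, pairs with the same number correlated between -0.40 and 0.23, and pairs with different numbers between -0.32 and 0.40. Where a time has 2 samples their deviations are mirror images, so these values cannot decide whether the numbers pair samples. The replicate block is given here only. It turned ZNF10 (0.0086), PRDM16 (0.021), COPEB (0.10), ZNF93 (0.027), ZID (0.0025), HSF1 (0.059) and ETV1 (0.054). The deposited ratios turned KIAA0731 (-0.064), KIAA0326 (-0.011), TAF2B (-0.014), KIAA1037 (-0.066), SOX2 (-0.14), GATA3 (-0.14) and NR1I3 (-0.20). Array quality weights turned JUNB (0.35), SOX2 (-0.35), GATA3 (-0.36), GFI1 (-0.031), ZNF93 (0.15), ZID (0.12), NR1I3 (-0.20), HSF1 (0.071), LOC51131 (0.13) and SSX4 (0.10). GATA3 turned to -0.080 and ETV1 to 0.025 with no background correction, and GFI1 turned to -0.031 at offset 0, -0.074 with median centring and -0.040 without the array scanned on a day of its own. ETV1 turned to 0.0079 with a plain mean, 0.014 with the sample as a random block, 0.017 in the methods' t-test on 5 arrays and 0.0017 with the scan day as a block. With 1 sample left out the ranges were -1.51 to 0.31 for KIAA0352, -1.42 to 0.19 for GATA4, -0.49 to 0.040 for COPEB, -1.17 to 0.038 for BACH2, -0.089 to 0.40 for HEY1, -0.065 to 0.071 for GFI1, -0.54 to 1.24 for POU4F1, -0.42 to 1.29 for FOXP1, -0.82 to 0.19 for JUNB, -0.036 to 0.88 for ATF7, -0.48 to 0.73 for GATA3, -0.70 to 0.23 for ZNF93, -0.44 to 0.17 for ZID, -0.28 to 0.046 for HSF1, -0.79 to 0.25 for LOC51131, -0.80 to 0.13 for SSX4, -0.037 to 0.0092 for ETV1 and -0.66 to 0.061 for FOXC1.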
